A study of Mus musculus with 11 samples.

Results

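Synaptic vesicle and SNARE release machinery comprised 83 protein-coding genes of the 48709 gene identifiers counted in hippocampal CA1. They were chosen by symbol: the synaptotagmins, syntaxins, syntaxin-binding proteins, SNAP proteins, synaptobrevins (Vamp genes), synapsins, synaptophysins, synaptogyrins, synaptojanins, SV2 proteins, complexins, Rims, Unc13, Bsn, Pclo, Erc, Nsf, alpha- and beta-SNAP (Napa and Napb), Doc2 and Rab3 genes with 10 or more counts in at least 5 of the 11 libraries. Of 89 protein-coding genes with such symbols, 6 missed that minimum (Cplx4, Stx11, Stx19, Syngr4, Syt8 and Vamp9). Vamp9, the best counted of these, had 62 counts in all, against 303 for Syt15, the sparsest gene kept. All 83 also passed the filter used for testing, which kept 17293 genes.

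RNA came from CA1 of 3-month-old mice, in 6 libraries from CamkdeltaC transgenic mice and 5 from littermates used as controls, with both sexes in the experiment and the sex of each library not given. CamkdeltaC names one splice variant of calcium/calmodulin-dependent kinase II delta. From general knowledge, mice of this kind carry the transgene under a heart promoter and develop heart failure, so the CA1 level of the gene does not check the labels. Camk2d itself stood at 67.8 ± 36.7 CPM (depth-scaled counts; SD, n = 6) in transgenic and 72.03 ± 18.6 CPM (SD, n = 5) in control libraries, with a log2 fold change of -0.08 (SE 0.29, edgeR adjusted p = 0.873). Nothing in the labels ties each library to its own animal, and if animals were shared the p-values would cover only technical spread between libraries.

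A nerve terminal releases transmitter when a synaptic vesicle fuses with the plasma membrane. Fusion is driven by a SNARE complex in which a vesicle protein, synaptobrevin, zips together with the target membrane proteins syntaxin and SNAP-25, primed by Munc13 (Unc13), clamped by complexin and triggered by calcium binding to synaptotagmin. Active zone proteins such as RIM, bassoon and piccolo hold vesicles at the release site, Rab3 proteins mark vesicles for docking, and NSF with SNAP adaptors takes spent SNARE complexes apart. CA1 tissue holds the RNA of local pyramidal cells and interneurons, while the CA3 neurons that form most of its excitatory terminals have their cell bodies elsewhere.

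Total counts ran from 14263784 (control 5) to 36898689 (control 3), and the 83 genes took 2.18% to 2.33% of the counts in every library. Summed levels of each of the fixed marker lists (CA1, CA2 and CA3 pyramidal cells, dentate granule cells, interneurons, astrocytes, microglia, oligodendrocytes and their precursors, vessel cells, choroid plexus and ependyma) overlapped between the groups. The 6 CA1 pyramidal markers summed to 1160 to 1521 CPM in transgenic and 1023 to 1325 CPM in control libraries, and none was at 0. Of the markers tested, 3 of 7 astrocyte and 3 of 7 microglial genes and 1 of 8 interneuron genes were called higher, and 1 of 6 vessel genes was called lower. Over all genes tested, 7.41% were called higher and 10.5% lower. No marker was called by edgeR once the GC trend described next was removed. At an unadjusted edgeR p under 0.05, 5 markers were then higher and 1 lower, against 18.2% of all genes in either direction. The part of other cell types in the results below was not tested. In dissected tissue, fewer cells of a type and less RNA per cell cannot be told apart. Libraries also differed in how level varied with base composition: per 10 percentage points of transcript GC content, log2 CPM relative to the gene's mean changed by -0.06 to 0.27 in the transgenic libraries and by -0.22 to -0.06 in the controls. Shares of counts moved with genotype as well: unnamed identifiers took 0.0446% to 0.0556% in transgenic and 0.0563% to 0.0649% in control libraries, without overlap, and mitochondrial genes 3.01% to 4.15% and 3.86% to 5.03%. Their part in the results was not tested. In the GC trend, the highest control (control 2, -0.0617) lay just below the lowest transgenic library (transgenic 6, -0.0607). The trend was thus aligned with genotype, and whether it is technical or biological cannot be told from these libraries. Its removal also takes out any genotype difference that follows GC content. Calls are therefore given as counted and again after the GC trend of each library was removed (corrected values). The correction used the GC content of a gene's longest transcript. For 8 of the 83 genes that transcript is not annotated as coding (Snap25, Syp, Stx1a, Stx3, Stx5a, Syn3, Snap91 and Vamp1), so the correction was repeated, after the data were seen, with the longest coding transcript.

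In transgenic CA1, 23 of the 83 genes passed the test (edgeR adjusted p under 0.05; 27.7% of them, against 17.9% of all genes tested). Of these, 9 rose (10.8%, against 7.41%) and 14 fell (16.9%, against 10.5%). The changes were small, from a fall of 32.0% for Syt4 to a rise of 27.8% for Vamp8. Rises were in the plasma membrane syntaxins Stx1a and Stx4a, in Stx6, Snap47, Vamp8, the synaptotagmin Syt5, Rims4, Syngr3 and Rab3a. Falls were in Snap25, the endosomal and autophagosomal syntaxins Stx7, Stx12 and Stx17, the tomosyns Stxbp5 and Stxbp5l, Stxbp4, the synaptotagmins Syt1 and Syt4, the scaffolds Pclo and Erc2, Rab3c, Sypl and Synj1. The median log2 fold change over the 83 genes was 0.03, against 0.01 over all genes tested. After removal of the GC trend only Syt4 was called among the 83, while 1.98% of all genes were called. With the GC content of coding transcripts edgeR called none of the 83 (15 at an unadjusted p under 0.05), against 0.694% of all genes. In the first of these fits the median absolute log2 fold change of the 83 fell from 0.17 to 0.08 (0.16 to 0.10 over all genes). The number of calls also changed with the library left out, in fits that hold fewer libraries. Without transgenic 1, 2, 3 or 4, or without control 1, 3, 4 or 5, it was 5 to 12, and without transgenic 5 or 6 or control 2 it was 24 to 30.

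**Figure D1:**
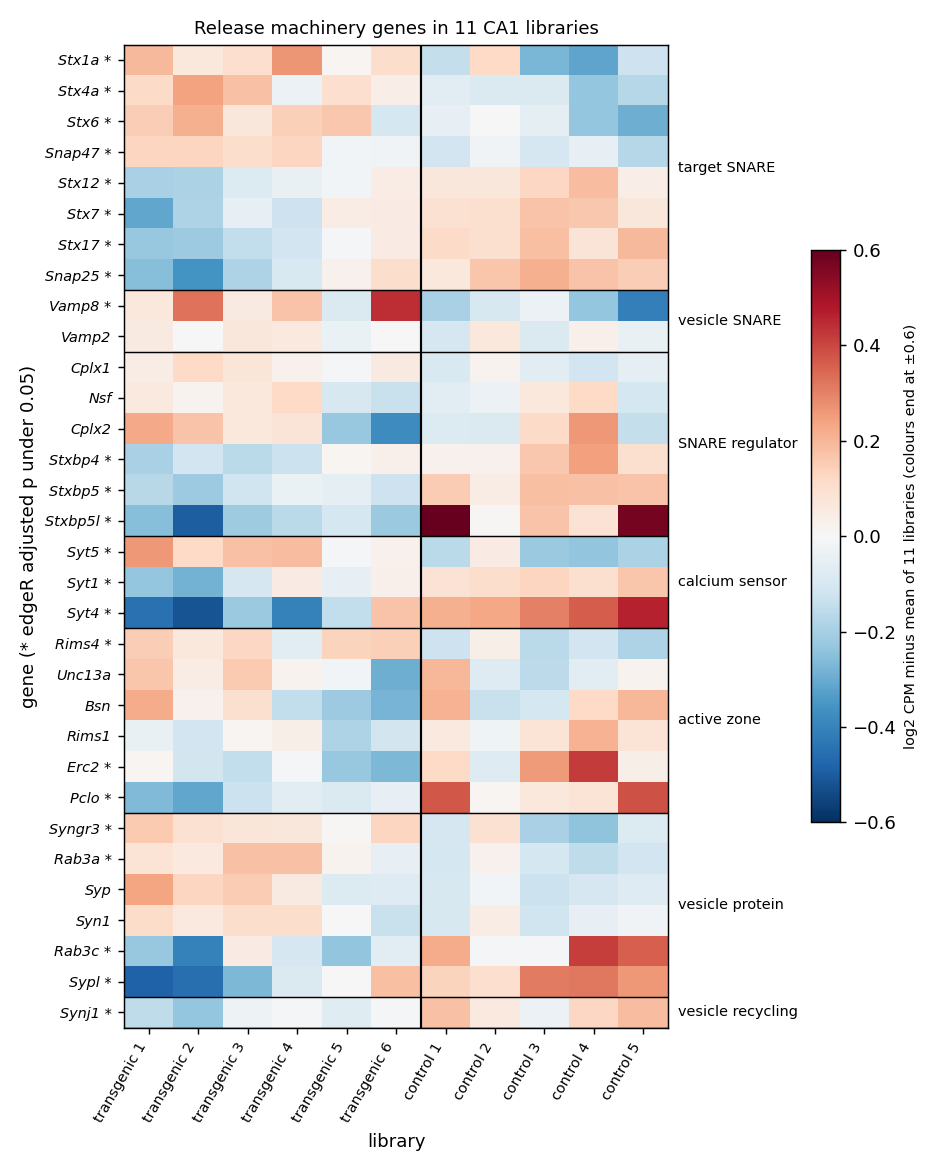
Level of the 32 genes named by rule in each of 11 libraries, as log2 CPM minus the gene's mean over the libraries; rows are grouped by role, columns are 6 transgenic then 5 control libraries, and an asterisk marks an edgeR adjusted p under 0.05. Within the transgenic group, transgenic 1 and 2 are the lowest for Snap25, Sypl and Stx7, and transgenic 6 lies nearer the controls for these genes.

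Every transgenic library lay above every control for 3 of the 83 genes (3.61%, against 3.04% of all genes tested), namely Snap47, Stx4a and Syngr2. Every transgenic library lay below every control for 7 (8.43%, against 4.73%): Stxbp5, Stxbp5l, Pclo, Syt1, Syt4, Stx7 and Stx17. Syngr2, a synaptogyrin found mainly outside neurons, missed the adjusted threshold by edgeR (log2 fold change 0.34, SE 0.12, adjusted p = 0.0690). It passed by DESeq2 (adjusted p = 0.0348) and not by limma voom (adjusted p = 0.0661), and the authors' deposited list of higher genes holds it (adjusted p = 0.0361). Its corrected estimate was 0.18 (edgeR adjusted p = 0.439). Calls for Stxbp5, Stxbp5l, Syt4 and Syt5 held in all 11 fits that left out 1 library. Pclo and Stx4a were called in 10 of them, Stx17 in 9 and Rab3c in 8, and the other 15 in 2 to 5. The authors' deposited lists of changed genes held 31 of the 83, with 15 higher and 16 lower, and included all 23 genes called here in the same direction.

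Levels between genes were compared per kilobase of exon, with exon length joined over all annotated transcripts of a gene, coding or not. For Syp that length is 5211 bases, while its coding sequence has 945 and the sequence after its stop codon 1424. For Snap91 these are 9126, 2706 and 1411. The order of genes thus depends on the length used, and levels by coding transcript length were not computed. In controls the highest in each role were Snap25 among target SNAREs (323 ± 12.4 CPM per kb, SD, n = 5), Vamp2 among vesicle SNAREs (272.5 ± 13.8) and Cplx1 among SNARE regulators (287 ± 10.5). Syt1 led the synaptotagmins and Doc2 proteins (196 ± 4.47), Rab3a the vesicle proteins (212 ± 10.2), Synj1 the recycling genes (71.4 ± 4.51) and Unc13a the active zone proteins (42.6 ± 4.10). The SD range of Cplx1 overlapped those of Vamp2 and of Cplx2 (253 ± 30.7), a gene of its own role. That of Snap25 lay above these. Across the 83 genes the log2 fold change had a Spearman correlation of -0.05 with this level, as a description over genes measured in the same libraries.

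**Figure D2:**
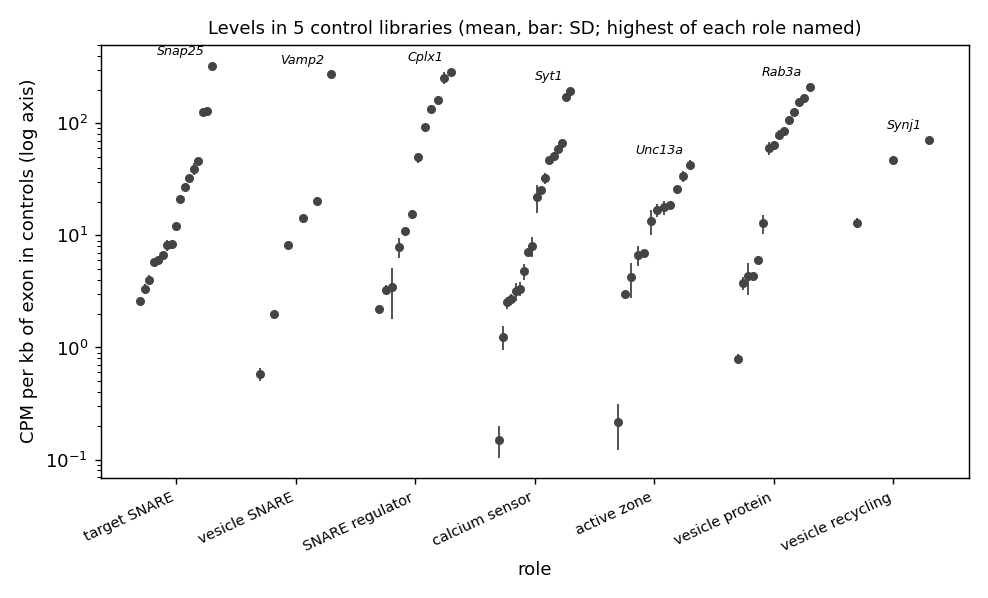
Control level of all 83 genes in CPM per kb of exon on a log axis, by role (points are means and bars the SD of 5 control libraries). Snap25 at 323, Cplx1 at 287 and Vamp2 at 272.5 CPM per kb are the highest. Synaptotagmins and Doc2 genes, labelled calcium sensors, run from 0.151 CPM per kb for Syt15 to 196 for Syt1.

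Target membrane SNAREs numbered 17, of which 4 rose, 4 fell and 9 were not called. Their log2 fold changes ran from -0.27 to 0.27, with a median of 0.04 (0.06 with the GC trend removed). Stx1a (ENSMUSG00000007207, chromosome 5, 135023482 to 135051100, build mm10) encodes a syntaxin of the presynaptic plasma membrane. It was counted at 104.5, 125, 95.3, 92.6 and 106 CPM in controls 1 to 5 and at 116 to 139 CPM (median 124) in the transgenic libraries. The groups overlapped only through control 2, and the gene rose by 0.27 on the log2 scale (SE 0.08, adjusted p = 0.0307). Corrected for the GC trend it was 0.10 (adjusted p = 0.461).

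Stx4a (chromosome 7, 127824294 to 127849019) encodes a plasma membrane syntaxin used in many cell types. Control levels were 52.0, 51.3, 51.3, 46.4 and 48.4 CPM, and transgenic levels ran from 53.1 to 64.4 CPM (median 58.7), so that the groups did not overlap. A rise of 0.23 (SE 0.06, adjusted p = 0.0178) became 0.12 (adjusted p = 0.191) with the GC trend removed. A small part of its exons overlaps another gene on the opposite strand, and the unstranded kit cannot assign reads from there.

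Snap47, a SNAP-25 relative that lacks the membrane-anchoring cysteines, stood at 331, 352, 334, 345.5 and 317.5 CPM in controls and at 353 to 392 CPM (median 388) in transgenic libraries. These ranges were separated by less than 1 CPM. Snap47 rose by 0.17 (SE 0.05, adjusted p = 0.0366), with an estimate of 0.08 (adjusted p = 0.289) without the GC trend. The gene overlaps Jmjd4 on the opposite strand by 307 bases, 11.6% of its exons. Stx6, a syntaxin of the trans-Golgi network, rose by 0.23 (SE 0.07, adjusted p = 0.0374), and was at 0.17 (adjusted p = 0.157) in corrected values.

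Snap25 (ENSMUSG00000027273, chromosome 2, 136713453 to 136782428) encodes the neuronal SNARE cut by botulinum toxin A. In controls it was the most abundant of the 83 transcripts per kilobase. In transgenic libraries the means of Cplx1 (310 CPM per kb) and Vamp2 (282.5) were above that of Snap25 (268). The exon length behind this order is 6791 bases for Snap25, whose coding sequence has 621 and the sequence after its stop codon 1285. For Cplx1 these are 2189, 405 and 1575, so the order depends on the length used. Without division by length, the transgenic means were 679 CPM for Cplx1, 1076 for Vamp2 and 1820.5 for Snap25. For Snap25, controls held 2062, 2215, 2294, 2222 and 2187 CPM, and transgenic libraries 1541 to 2123 CPM (median 1796). Only transgenic 6 exceeded the lowest control. Snap25 fell by 0.27 on the log2 scale (SE 0.08, adjusted p = 0.0310). The corrected estimate depended on the transcript used. Its longest transcript, annotated as a retained intron, has a GC content of 38.7% and gave 0.13 (SE 0.04, adjusted p = 0.121), while the longest coding transcript (43.4%) gave -0.08 (SE 0.04, adjusted p = 0.410). The 2 transgenic libraries with the steepest GC trends, transgenic 1 and 2, had the 2 lowest Snap25 levels, 1657 and 1541 CPM.

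Stx17, a syntaxin of autophagosomes, was at 35.7, 35.3, 37.3, 34.8 and 37.6 CPM in controls and at 28.2 to 34.1 CPM (median 30.1) in transgenic libraries, without overlap. It fell by 0.24 on the log2 scale (SE 0.06, adjusted p = 0.0196), against a difference of -0.07 without the GC trend. Stx7 and Stx12, syntaxins of late and recycling endosomes, fell by 0.21 and 0.18 (adjusted p = 0.0399 and 0.0392). Both lay at -0.02 in the corrected fit. Stx3, a syntaxin of dendritic spines and sensory synapses, missed the threshold at -0.16 (edgeR adjusted p = 0.0618). It passed by DESeq2 (adjusted p = 0.0423) and limma voom (adjusted p = 0.0412). Its corrected values were -0.17 (adjusted p = 0.0947) by its longest transcript and -0.10 (adjusted p = 0.367) by its coding transcript.

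The vesicle SNAREs numbered 6, of which only Vamp8 rose and none fell (edgeR; 1 lower at an unadjusted p under 0.05, and 1 by DESeq2 and by limma voom), with log2 fold changes from -0.27 to 0.42. Vamp8, an endosomal and autophagic SNARE, was sparse. It rose by 0.35 on the log2 scale (SE 0.11, adjusted p = 0.0435) from 4.59 ± 0.451 CPM (SD, n = 5) to 5.89 ± 0.812 CPM (SD, n = 6). It was called in 2 of the 11 fits without 1 library. Vamp2, the synaptobrevin of synaptic vesicles, stood at 986, 1106, 994.5, 1079 and 1024 CPM in controls and at 1030 to 1107 CPM (median 1079) in transgenic libraries. Its groups overlapped, with a log2 fold change of 0.05 (SE 0.05, adjusted p = 0.470) as counted and -0.05 without the GC trend.

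Among the 12 SNARE regulators, which bind, clamp or take apart the complex, 3 fell, none rose and 9 were not called, over a range of -0.55 to 0.60. By edgeR 2 were higher at an unadjusted p under 0.05, and DESeq2 and limma voom called 1 and 2 higher. Those that fell were Stxbp4, Stxbp5 and Stxbp5l. Stxbp5 (ENSMUSG00000019790, chromosome 10, 9755547 to 9901079) and Stxbp5l (ENSMUSG00000022829, chromosome 16, 37114942 to 37384962) encode tomosyns, which occupy syntaxin and SNAP-25 and so hold back fusion. Stxbp5 was at 182, 168, 185, 185 and 184 CPM in controls and at 140.4 to 159 CPM (median 150.0) in transgenic libraries. The groups were apart, and the log2 fold change was -0.27 (SE 0.05, adjusted p = 0.0111). Its corrected value was -0.03 (adjusted p = 0.800).

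Stxbp5l stood at 82.2, 54.1, 60.7, 57.2 and 80.1 CPM in controls and at 38.3 to 50.0 CPM (median 46.4) in transgenic libraries. All transgenic libraries were below all controls, and controls 1 and 5 were well above the other 3. Stxbp5l fell by 31.5%, a log2 fold change of -0.55 (SE 0.11, adjusted p = 0.0125). Without the GC trend the estimate was -0.38 (SE 0.11), which missed the threshold (adjusted p = 0.0859) and ranged from -0.44 to -0.28 in the 11 fits without 1 library. Stxbp4, a binding partner of syntaxin 4, fell by 0.20 (adjusted p = 0.0417), and had a difference of -0.08 without the GC trend.

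Nsf and the 2 main complexins were not called by edgeR. Nsf, the ATPase that recycles SNAREs, was at 1068, 1092, 1169.8, 1215 and 1041 CPM in controls and 1019 to 1217 CPM (median 1149) in transgenic libraries. Its groups overlapped, with a log2 fold change of 0.01 (SE 0.06, adjusted p = 0.925). Of the complexins, which clamp and then assist fusion, Cplx1 was at 615, 665, 624.8, 605 and 631 CPM in controls and at 651 to 711 CPM (median 678) in transgenic libraries. Cplx2 was at 1163, 1157, 1334, 1474 and 1114 CPM in controls and at 949 to 1443 CPM (median 1292) in transgenic libraries, the wider spread of the pair. Their log2 fold changes were 0.11 (SE 0.04, adjusted p = 0.0954) and -0.02 (SE 0.11, adjusted p = 0.939). Cplx1 was higher by DESeq2 (adjusted p = 0.0175) and limma voom (adjusted p = 0.0423), and the authors' deposited list of higher genes holds it at 0.11 (adjusted p = 0.0219). In corrected values Nsf was at -0.004 (adjusted p = 0.982), Cplx1 at -0.04 (adjusted p = 0.689) and Cplx2 at -0.14 (adjusted p = 0.499). Missing the threshold does not show equal levels. Cplx3, a sparse complexin known from retina and deep cortex, had the largest estimate of the 83, 0.60 (SE 0.29, adjusted p = 0.153; corrected 0.53, adjusted p = 0.374), at 10.2 ± 4.93 CPM in controls (SD, n = 5) and 15.4 ± 5.14 CPM in transgenic libraries (SD, n = 6). The authors' deposited list of higher genes gives it at 0.68 with an adjusted p of 0.00031.

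The 18 synaptotagmins and Doc2 proteins were grouped by family as calcium sensors, whether or not each binds calcium. They held 1 rise (Syt5), 2 falls (Syt1 and Syt4) and 15 genes not called, from -0.56 to 0.40. Syt4 (ENSMUSG00000024261, chromosome 18, 31437808 to 31447406) encodes a synaptotagmin of dense-core vesicles and postsynaptic organelles and is an activity-induced gene. Controls held 172, 174, 182, 190.3 and 204 CPM. Transgenic libraries held 104 to 167 CPM (median 119.5), all below the lowest control, with transgenic 6 the nearest. Syt4 fell by 0.56 on the log2 scale (SE 0.11, adjusted p = 0.0117). In the corrected fit it was -0.26 (SE 0.06, adjusted p = 0.0475), the only one of the 83 past the threshold, and by coding transcript GC it was -0.23 (SE 0.06, adjusted p = 0.0727). When 1 library was left out of that corrected fit, the estimate stayed between -0.30 and -0.23, and the call held only without transgenic 6. In 8 of those 11 corrected fits no gene of the whole table was called by edgeR, and 12 to 18 of the 83 had an unadjusted p under 0.05 in them. Syt4 overlaps the antisense gene Gm26658 by 566 bases, 14.5% of its exons; that gene held 214 counts in all.

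Syt1, the main calcium sensor for synchronous release, was at 1595, 1618, 1647, 1609 and 1689 CPM in controls and at 1234 to 1558 CPM (median 1428) in transgenic libraries, without overlap. It fell by 0.21 (SE 0.06, adjusted p = 0.0393), against -0.12 (adjusted p = 0.233) without the GC trend. Syt5, a vesicle synaptotagmin, was at 157, 182, 151, 149 and 154 CPM in controls and at 175 to 211 CPM (median 195) in transgenic libraries. Control 2 reached into the transgenic range. Syt5 rose by 0.28 (SE 0.07, adjusted p = 0.0164), and the value without the GC trend was 0.14 (adjusted p = 0.129). Syt7, the sensor of slow and asynchronous release, had 0.11 (adjusted p = 0.241) as counted and -0.01 (adjusted p = 0.933) in corrected values.

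Of the 12 active zone genes 1 rose (Rims4), 2 fell (Pclo and Erc2) and 9 were not called, from -0.34 to 0.29. Pclo (piccolo, a giant scaffold) was at 427, 332, 345, 349 and 429.9 CPM in controls and at 266 to 318 CPM (median 306) in transgenic libraries, without overlap. Pclo fell by 0.34 (SE 0.08, adjusted p = 0.0178), with an estimate of -0.23 (adjusted p = 0.114) with the GC trend removed. Its partner Bsn (bassoon) was at 594, 468, 478, 559 and 590.5 CPM in controls and at 424 to 600.4 CPM (median 494) in transgenic libraries, and the groups overlapped. Bsn had a log2 fold change of -0.10 as counted (adjusted p = 0.483) and of -0.31 (SE 0.08, adjusted p = 0.0629) without the GC trend. Removing the trend thus made Bsn, with a transcript GC content of 59.8%, lower and left the AT-richer Pclo (45.4%) less low.

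Rims4, a short RIM made only of the last domain, was at 90.9, 101, 88.7, 91.5 and 87.2 CPM in controls and at 94.7 to 109.7 CPM (median 108) in transgenic libraries. It rose by 0.20 (SE 0.05, adjusted p = 0.0259), against 0.05 without the GC trend. Erc2, an active zone scaffold, fell by 0.28 (SE 0.08, adjusted p = 0.0364), against -0.21 (adjusted p = 0.193). Rims1, which links vesicles to calcium channels, was at 189.6, 178, 193, 210.0 and 192.5 CPM in controls and at 160.1 to 186.5 CPM (median 172.5) in transgenic libraries. Unc13a (Munc13-1, which primes vesicles) was at 620.3, 513.5, 486, 517 and 550.0 CPM in controls and at 441 to 607 CPM (median 554) in transgenic libraries. Both sets of groups overlapped, with log2 fold changes of -0.15 (adjusted p = 0.0741) and 0.03 (adjusted p = 0.827). Rims1 was lower by DESeq2 (adjusted p = 0.0480), and corrected values were -0.10 (adjusted p = 0.286) and -0.11.

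Vesicle proteins numbered 15, with 2 rises (Rab3a and Syngr3), 2 falls (Rab3c and Sypl) and 11 not called, from -0.39 to 0.34. Syp, synaptophysin, the abundant vesicle membrane protein, was at 806, 852, 787, 803 and 817 CPM in controls and at 814 to 1015 CPM (median 918) in transgenic libraries. Transgenic 5 and 6 lay among the controls and the other 4 above them. Its log2 fold change was 0.16 (SE 0.06, adjusted p = 0.0949; 0.0269 by limma voom). Its longest transcript is annotated as a retained intron with a GC content of 45.4%, while its coding sequence has 58.4% and its longest coding transcript 56.6%. The corrected estimate was 0.27 (SE 0.08, adjusted p = 0.0840) by the first and 0.0002 (SE 0.04, adjusted p = 0.999) by the coding transcript. Syn1, synapsin 1, which tethers vesicles, was at 531, 586, 522, 548.5 and 559 CPM in controls and at 518 to 612 CPM (median 602) in transgenic libraries. The groups overlapped, with values of 0.09 (adjusted p = 0.264) as counted and -0.08 without the GC trend.

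Syngr3, a synaptogyrin, rose by 0.19 (SE 0.06, adjusted p = 0.0422) and had 0.03 without the GC trend. Sypl, a synaptophysin relative found in many tissues, fell by 0.39 (SE 0.11, adjusted p = 0.0283), from 50.6 ± 3.51 CPM (SD, n = 5) to 38.6 ± 7.06 CPM (SD, n = 6). Without the GC trend its estimate was 0.0006 (adjusted p = 0.996). The 3 recycling genes held 1 fall, Synj1, the lipid phosphatase that helps shed clathrin coats, at -0.19 (SE 0.06, adjusted p = 0.0449) as counted and -0.13 (adjusted p = 0.228) without the trend. Snap91 (AP180), a clathrin assembly protein, had -0.16 (adjusted p = 0.0782; 0.0499 by DESeq2 and 0.0352 by limma voom). Its corrected values were -0.04 by the longest transcript, a retained intron, and -0.16 (adjusted p = 0.179) by the coding transcript. The authors' deposited list of lower genes holds it at -0.15.

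Rab3a and Rab3c encode closely related vesicle GTPases, and they were called in opposite directions. Rab3a (ENSMUSG00000031840, chromosome 8, 70754679 to 70758677) was at 465, 509.8, 465.6, 451 and 463 CPM in controls and at 485 to 566 CPM (median 526.4) in transgenic libraries. Rab3c (ENSMUSG00000021700, chromosome 13, 110054187 to 110280996) was at 729.6, 621, 623, 833 and 801 CPM in controls and at 472 to 646 CPM (median 558) in transgenic libraries. In each gene 1 group reached into the other, Rab3a through control 2 and Rab3c through transgenic 3. Rab3a rose by 0.17 (SE 0.05, adjusted p = 0.0475) and Rab3c fell by 0.36 (SE 0.09, adjusted p = 0.0231). The estimates were 0.04 (adjusted p = 0.728) and -0.11 (adjusted p = 0.553) without the GC trend.

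The coding sequences of this pair are shown because they encode like proteins with unlike base composition. Over 660 aligned bases they were 76.2% identical, namely 88.6%, 92.3% and 47.7% at codon positions 1, 2 and 3. At 56 of 220 aligned codons Rab3a had G or C at position 3 where Rab3c had A or T, and at 24 the reverse. The runs below are 150 aligned coding bases, 5′ to 3′, of Rab3a (positions 1 to 150, counted from the first base of the start codon of the longest GENCODE coding sequence) and Rab3c (positions 25 to 174). Capitals mark a G or C at codon position 3, 38 of 50 in Rab3a and 29 of 50 in Rab3c.
Rab3a coding: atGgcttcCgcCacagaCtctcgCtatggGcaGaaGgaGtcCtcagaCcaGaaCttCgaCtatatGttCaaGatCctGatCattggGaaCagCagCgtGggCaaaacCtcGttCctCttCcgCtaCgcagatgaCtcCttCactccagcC
Rab3c coding: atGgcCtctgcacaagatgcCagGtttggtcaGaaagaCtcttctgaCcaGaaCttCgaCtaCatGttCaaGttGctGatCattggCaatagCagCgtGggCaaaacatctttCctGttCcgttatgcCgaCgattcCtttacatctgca

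This composition pattern ran through the release machinery. The 9 genes that rose had transcript GC contents of 51.1% to 57.9% (median 55.0%) and the 14 that fell 38.7% to 46.9% (median 43.7%), with no overlap. Across the 83 genes the Spearman correlation of log2 fold change with transcript GC content was 0.76 (0.68 across all genes with a GC value), and 0.13 once the trend was removed. With coding transcript GC it was 0.78. With exon length it was -0.49. These correlations are over genes that share the same 11 libraries, and GC content and length were themselves related (-0.42). The correlation was 0.79 for the sequence after the stop codon (81 genes; 0.59 over all genes), 0.68 for codon position 3 (0.58 over all genes) and 0.33 for codon positions 1 and 2 (0.43 over all genes). GC content at codon position 3 ran from 64.0% to 81.3% in genes that rose and from 40.1% to 63.0% in those that fell. Whether base composition as such accounts for these differences was not tested.

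**Figure D3:**
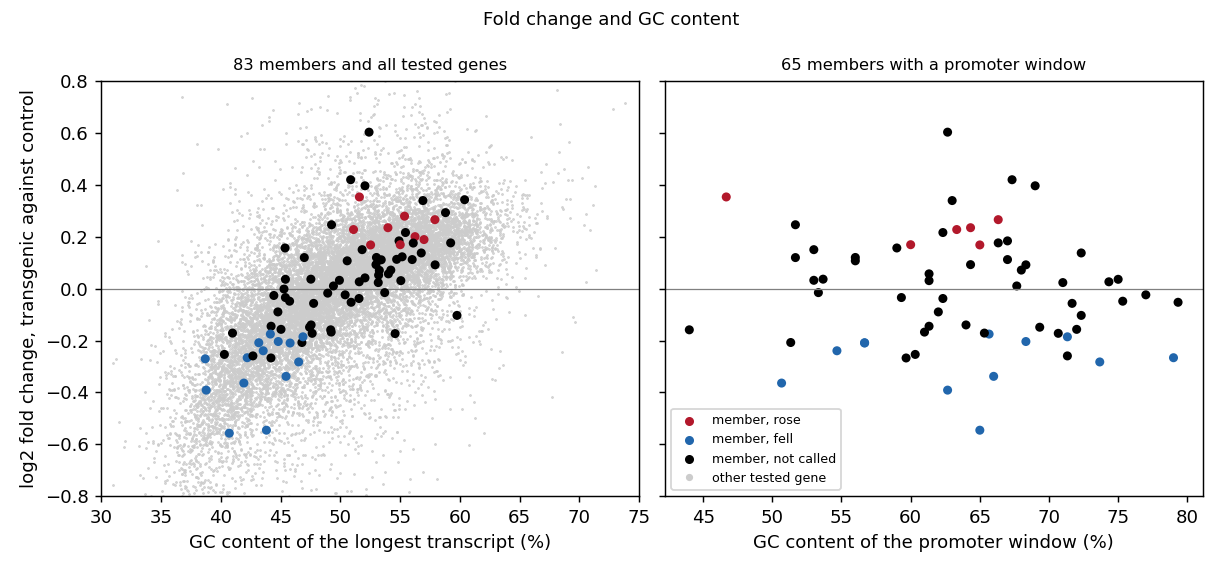
Log2 fold change of the 83 release genes against the GC content of the longest transcript (left, with all tested genes in grey; axis limits of ±0.8 omit more extreme genes) and of the 65 with a promoter window against its GC content (right). Genes that rose (red) and fell (blue) separate by transcript GC content, with a Spearman correlation of 0.76, and not by promoter GC content, with -0.08.

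Promoter windows from RefSeq (build GRCm38, 250 bases before to 50 after the gene start, the most upstream where several were listed) were matched by symbol for 65 of the 83 genes. Log2 fold change had a Spearman correlation of -0.08 with their GC content. Promoter GC ran from 46.7% to 66.3% (median 63.8%) in the 6 matched genes that rose and from 50.7% to 79.0% (median 65.3%) in the 12 that fell. The GC box GGGCGG, read on both strands as GGGCGG or CCGCCC, was in 76.9% of these windows and in 35.9% of all 27025, and in 5 of 6 genes that rose and 11 of 12 that fell. The cyclic AMP response element TGACGTCA, which reads the same on both strands, was in 3 of 65 (4.62%, against 1.85% of all), those of Napa, Stxbp3 and Syn1, none of them called. Unlike the 65, the 27025 windows were not chosen by expression in CA1. Their median GC content was 52.7%, against 64.3% in the 65. A letter match is a description and not a bound site. The windows of Rab3a (chr8:70754453-70754752, plus strand) and Rab3c (chr13:110280157-110280456, minus strand) are shown for comparison with the coding sequences, with GC boxes in capitals. That of Rab3a had a GC content of 60% and that of Rab3c 50.7%. RefSeq and GENCODE gene starts can differ, and the windows of Rab3c and Stx4a lie wholly inside the GENCODE gene bounds given above.
Rab3a promoter: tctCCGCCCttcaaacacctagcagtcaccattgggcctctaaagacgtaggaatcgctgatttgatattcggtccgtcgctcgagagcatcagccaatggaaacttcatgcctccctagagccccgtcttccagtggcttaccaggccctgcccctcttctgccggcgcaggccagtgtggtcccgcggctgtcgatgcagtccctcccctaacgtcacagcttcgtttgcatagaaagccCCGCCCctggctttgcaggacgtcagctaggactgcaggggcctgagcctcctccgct
Rab3c promoter: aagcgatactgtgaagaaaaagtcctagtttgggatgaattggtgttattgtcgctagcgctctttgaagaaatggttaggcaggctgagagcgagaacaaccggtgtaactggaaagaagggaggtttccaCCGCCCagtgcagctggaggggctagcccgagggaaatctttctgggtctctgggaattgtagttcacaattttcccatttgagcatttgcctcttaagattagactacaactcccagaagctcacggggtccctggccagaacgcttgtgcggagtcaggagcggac

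**Figure D4:**
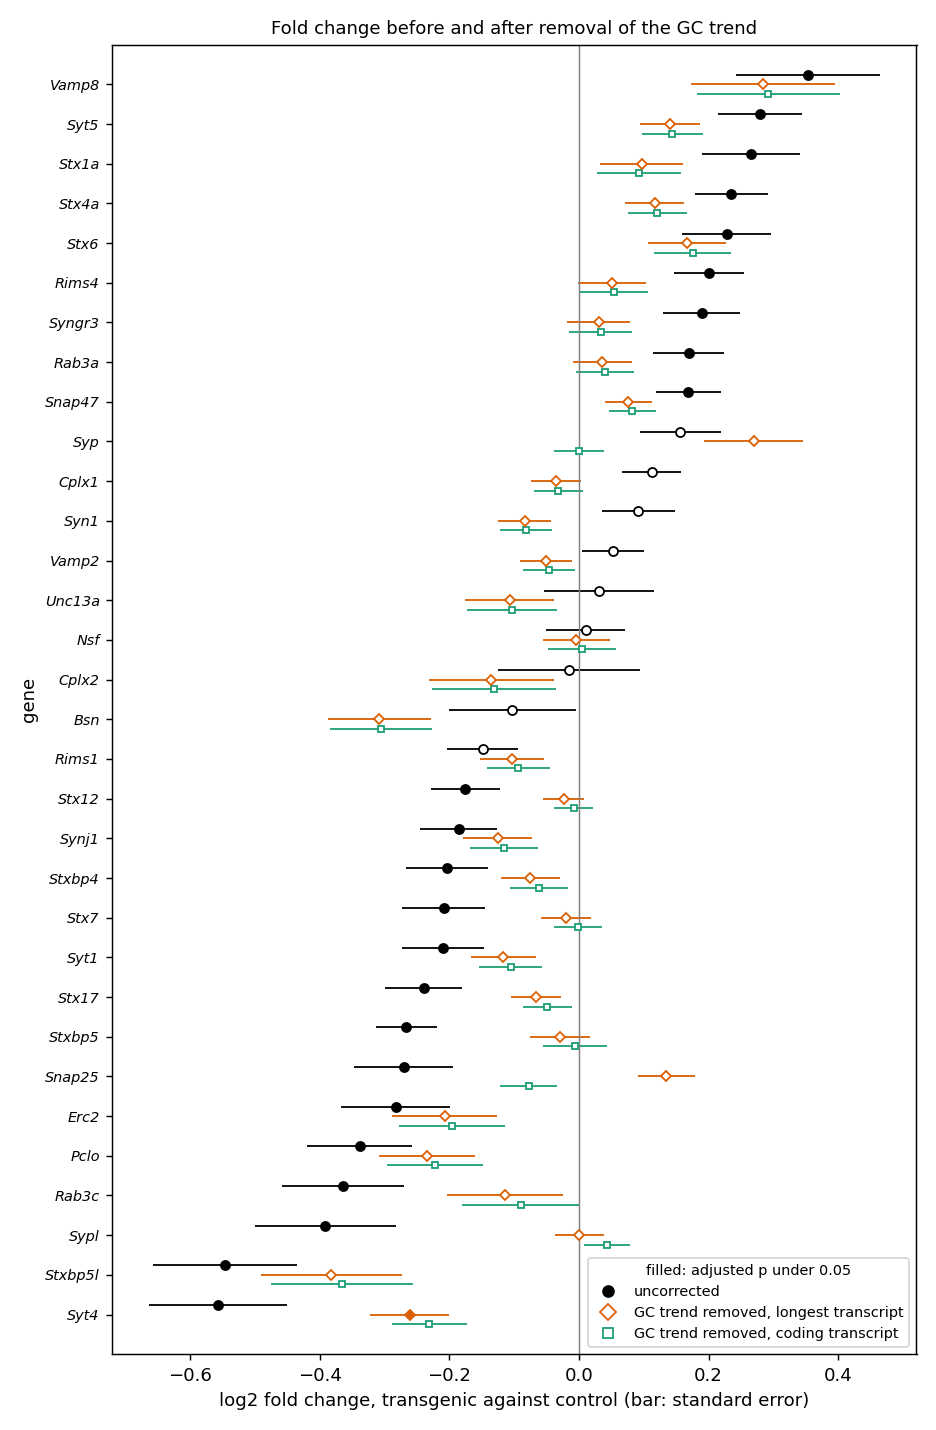
Log2 fold change with its standard error for the 32 named genes, as counted (black circles) and after removal of each library's GC trend by the longest transcript (orange diamonds) or the longest coding transcript (green squares); filled symbols have an adjusted p under 0.05. Of 23 filled circles, 1 stays filled as a diamond (Syt4) and none as a square, and diamond and square differ most for Syp (0.27 and 0.0002) and Snap25 (0.13 and -0.08).

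All 23 called genes had a smaller estimate after the trend was removed, and 21 kept their sign (not Snap25 and Sypl; with coding transcript GC only Sypl changed sign). At an unadjusted p under 0.05 there were 43 of the 83 genes as counted (51.8%, against 34.7% of all genes) and 16 after removal (19.3%, against 18.2%), 9 lower and 7 higher. Among the 32 genes named by rule, the largest corrected estimates were Stxbp5l (-0.38), Bsn (-0.31), Vamp8 (0.28), Syp (0.27), Syt4 (-0.26) and Pclo (-0.23). Of these only Syt4 passed the threshold, and that of Syp was 0.0002 with coding transcript GC.

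Ratios of relatives within a library were compared for 17 pairs by a two-sided exact permutation test over all 462 regroupings of the 11 libraries into 6 and 5, adjusted over the pairs. The ratio changed in 4 pairs. Without 1 library, where fewer regroupings raise the smallest p, no pair was called in 9 of 11 cases (smallest adjusted p 0.0540 to 0.0771, with 6 to 8 pairs at an unadjusted exact permutation p under 0.05), 4 were called without transgenic 6 and 8 without control 2. The differences of the 4 pairs kept their direction in all 11. The log2 ratio of Rab3a to Rab3c was -0.61 ± 0.25 (SD, n = 5) in controls and -0.08 ± 0.15 (SD, n = 6) in transgenic libraries, a difference of 0.53 (exact permutation p = 0.00433, adjusted p = 0.0276). Syt1 to Syt7 was lower by 0.33, from 2.11 ± 0.14 to 1.78 ± 0.17 (exact permutation adjusted p = 0.0276), and the groups did not overlap. Synj1 to Synj2 was lower by 0.31, from 2.42 ± 0.14 to 2.11 ± 0.13 (exact permutation adjusted p = 0.0276). Stxbp5 to Stxbp5l was higher by 0.26, from 1.45 ± 0.26 to 1.72 ± 0.08 (exact permutation adjusted p = 0.0276). In 3 of the 4 pairs the ratio moved toward the GC-richer gene.

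In corrected values the tomosyn ratio alone was called, at 0.33 (exact permutation p = 0.00216, the smallest these regroupings can give; adjusted p = 0.0368), and at 0.34 with coding transcript GC (exact permutation adjusted p = 0.0368). Its genes have like transcript GC contents, 42.2% for Stxbp5 and 43.8% for Stxbp5l. In the uncorrected ratios controls 1 and 5 stood at 1.142 and 1.199, and controls 2 to 4 at 1.61 to 1.69, within reach of the transgenic libraries at 1.64 to 1.87. The corrected differences of the other 3 were 0.15 for Rab3a to Rab3c, -0.11 for Syt1 to Syt7 and -0.15 for Synj1 to Synj2. Pairs of core isoforms did not pass the test as counted: Snap25 to Snap23 differed by -0.02 (exact permutation adjusted p = 0.861), Vamp2 to Vamp1 by -0.07 (0.444) and Cplx1 to Cplx2 by 0.14 (0.385).

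**Figure D5:**
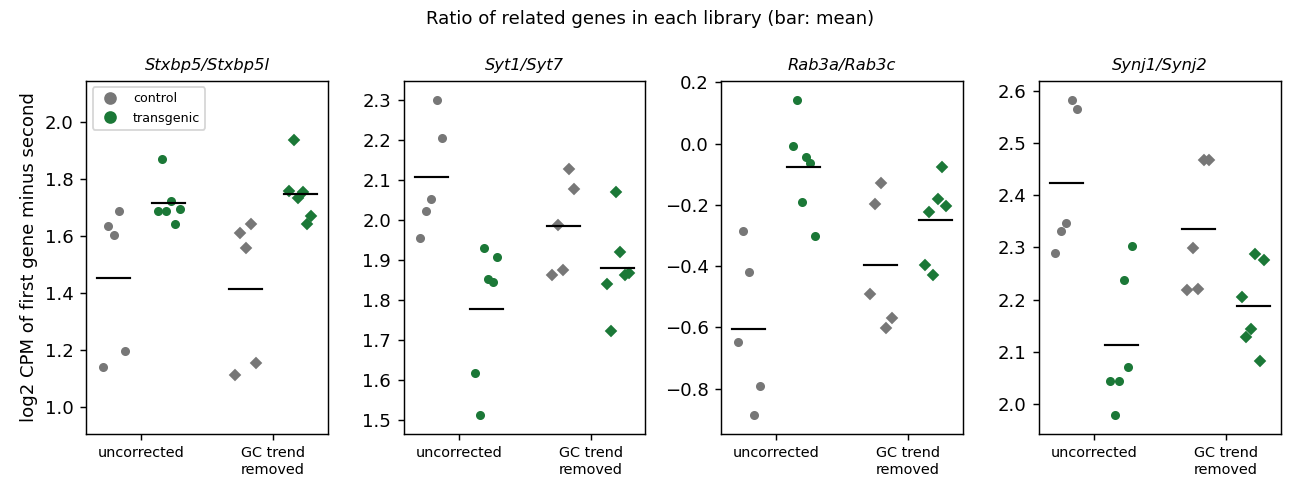
Log2 ratio of the 4 pairs whose ratio changed, in each library (grey, control; green, transgenic; bar, mean), as counted (circles) and with the GC trend removed (diamonds). The Rab3a to Rab3c means are -0.61 and -0.08 as counted and draw together after correction, whereas for Stxbp5 to Stxbp5l 2 controls lie far below the other libraries in both versions.

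Other genes of tethering, priming and endocytosis were read from a list of 44 partners. Against 7.41% of all genes tested that rose and 10.5% that fell, 6 of these 44 rose and 6 fell. These counts changed with the library left out, in fits that hold fewer libraries. Without transgenic 1, 2 or 3 or control 1, 4 or 5, edgeR called none higher (10 to 13 at an unadjusted p under 0.05). Without transgenic 2 or control 4 it called none lower (9 and 8 at that p). The most were 12 higher, without transgenic 6, and 7 lower, without transgenic 6 or control 1. None was called by edgeR with the GC trend removed. At an unadjusted p under 0.05, 3 partners were then higher and 3 lower, against 18.2% of all genes in either direction. The rises with the smallest p were in the clathrin adaptor subunits Ap2m1 (0.20, adjusted p = 0.0294) and Ap2s1 (0.20, adjusted p = 0.0350) and the clathrin light chain Cltb (0.17, adjusted p = 0.0347). The falls were in the dynamin Dnm3, which cuts vesicles from the membrane (-0.34, adjusted p = 0.0228), the clathrin heavy chain Cltc (-0.23, adjusted p = 0.0239) and Rab27b, a vesicle GTPase (-0.39, adjusted p = 0.0240). Corrected values of these 6 ran between -0.21 (Dnm3) and 0.15 (Ap2m1). Like the release genes, those that rose had GC contents above those that fell: 50.6% for Ap2m1, 56.2% for Ap2s1 and 54.0% for Cltb, against 44.5%, 43.6% and 37.9% for Dnm3, Cltc and Rab27b.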

How the data were processed

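Polyadenylated RNA of 11 CA1 libraries (6 transgenic, 5 control) was prepared with a kit that does not mark strand and sequenced as single reads of 50 bases, per the labels' protocols. The authors deposited raw counts per Ensembl gene for each library. STAR 2.5.2b, featureCounts, Subread 1.5.1 and FastQC 0.11.5 and the build mm10 are named per the submitters' processing notes, with settings not given in the sources used here. Their deposited tables of changed genes hold log2 fold changes and adjusted p-values (at most 0.0499) and a normalized signal per library, by a tool the sources used here do not name; only the fold change and p-value were used, for counting members.

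Counts were tested with edgeR 4.0.16 in R 4.3.3: filterByExpr by genotype, TMM scaling, the quasi-likelihood F test over all 11 libraries with no covariate, and Benjamini-Hochberg adjustment over 17293 genes with a threshold of 0.05. Levels are CPM with TMM-scaled library sizes, and log2 CPM used a prior count of 2. For the corrected fit, a lowess curve (span 0.3) of each library's deviation from the gene mean on the GC content of the longest GENCODE transcript entered as an offset (17246 genes with a value). This was repeated with the longest transcript annotated as coding, an alternative chosen after seeing the data. Pairs were tested in Python 3.11.15 with SciPy 1.17.1, and coding sequences were aligned with Biopython 1.88. The fits were checked on simulated counts. Alternatives were limma 3.58.1 voom, DESeq2 1.42.0, other scalings and filters, the replicate number as a block, the Xist level as a covariate, and leaving out each library.

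Members and lists were chosen with earlier results of these data known. Named genes were every member called in either fit, a core of release genes (13 of them reported) and the most abundant member of each role; library values are given for the core, the 5 members with the smallest p in each direction and the Rab3 pair. Partner genes named are the 3 with the smallest p in each direction. Cplx3, Stx3, Syt7, Snap91 and Syngr2 were named after their values were seen. Some members and 1 pair are counted but not reported by name here. The 360 identifiers without a name stayed in the fit and out of the lists. Depth, 14263784 to 36898689 counts, limits mainly the sparse genes such as Vamp8.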

Additional observations from a re-analysis of the deposited data

Results flagged for a closer look

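Within the groups of 5 or 6 libraries, 3 of 66 sets of values for named genes had 1 library far from the others, against 3.3 expected by chance at this threshold. All 3 were control 2. Rab3a stood at 509.8 CPM there and at 450.6 to 465.6 CPM in the other controls. Syt5 stood at 181.9 CPM, against 149.2 to 157 CPM. Stxbp5 stood at 168.4 CPM, against 181.6 to 185 CPM. In each gene control 2 lay on the side of the transgenic libraries, and its GC trend, -0.0617, was also the nearest to theirs.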

How the results depend on the processing

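The calls depended mainly on the GC correction and on which library, if any, was left out. Against 9 members higher and 14 lower, there were 3 and 8 with no filter, 15 and 21 with limma voom, 12 and 18 with DESeq2, and 13 and 16 with the Xist level as a covariate. With the GC trend removed there were 0 and 1, with GC and length trends removed 0 and 1, and with GC removal and the replicate block 1 (Syp) and 1 (Syt4), and with the GC trend of coding transcripts removed (chosen after seeing the data) 0 and 0, also for partners, with 1 changed pair. Leaving out each library gave 1 to 13 higher and 3 to 18 lower. With the GC trend removed and 1 library left out (chosen after seeing the data), members were called by edgeR only without transgenic 6 (Syp and Syt4) and without control 2 (Bsn, Rab3b, Syt5 and Vamp1). DESeq2 and limma voom each kept all 23 calls and added 7 and 13.

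Partners called higher (6) numbered 1 with no filter, 10 with DESeq2, 13 with limma voom, 10 with the replicate block, 0 with the GC trend removed, with GC and length removed and with GC removal and the block, and 0 to 12 without 1 library (0 in 6 of 11). Partners called lower (6) numbered 0, 0 and 1 under the 3 GC settings and 0 to 7 without 1 library (0 in 2 of 11). Changed pairs (4) numbered 1 with the GC trend removed, 2 with GC and length removed (Stxbp5 to Stxbp5l and Vamp2 to Vamp1) and 0 to 8 without 1 library (0 in 9 of 11). The Vamp2 to Vamp1 call used the GC content of a Vamp1 transcript that is not annotated as coding. Its difference was -0.283 there (exact permutation adjusted p = 0.0368). With only the GC trend of coding transcripts removed it was -0.08 (exact permutation adjusted p = 0.501). Removal of length together with coding transcript GC was not tested. A sign-flip version of the pair test within replicate numbers (replicate block) called 0, since its smallest possible p is 0.0625.

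Signs that changed: with the GC trend removed, Snap25 was 0.1349, Sypl 0.0006, Cplx1 -0.035, Nsf -0.004, Syn1 -0.0837, Unc13a -0.1069, Vamp2 -0.051 and Camk2d 0.0543. With GC and length removed, Snap25 was 0.1466, Sypl 0.0255, Cplx1 -0.0648, Stxbp5 0.0533, Syn1 -0.1003, Syngr3 -0.0013, Unc13a -0.0466, Vamp2 -0.0637 and Camk2d 0.1675. With GC removal and the replicate block, Snap25 was 0.1524, Cplx1 -0.0552, Stxbp5 0.0046, Syn1 -0.072, Unc13a -0.0621 and Vamp2 -0.0602. With the GC trend of coding transcripts removed, Sypl was 0.0432, Cplx1 -0.0316, Syn1 -0.081, Unc13a -0.1035, Vamp2 -0.0462 and Camk2d 0.0678, and Snap25 kept its sign; the sign change of Snap25 came with the GC value of its longest transcript, a retained intron. Cplx2, -0.02 as reported, was 0.003 with upper-quartile scaling, 0.0493 with limma voom, 0.0501 with the replicate block and 0.0138 with the Xist level. Without 1 library, Cplx2 ranged from -0.0645 to 0.0513, Nsf from -0.0137 to 0.0422, Unc13a from -0.0028 to 0.0879 and Camk2d from -0.3841 to 0.0424. The cause of the other changes was not tested.

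Samples share replicate numbers across the groups. Same-numbered libraries deviated from their group means with correlations of 0.20, -0.03, -0.19, -0.05 and 0.02, which gives no sign of pairing. The GC trend, however, fell at each number in the transgenic libraries, from 0.27 (transgenic 1) to -0.06 (transgenic 6). In controls 1 to 5 it was -0.12, -0.06, -0.20, -0.22 and -0.16. What the order of the numbers stands for was not tested. With the number as a block, 12 members were called higher and 19 lower, 22 of them among the 23. Number 6 exists only in the transgenic group, so transgenic 6 adds nothing to the genotype difference in that fit. It is also left out of the sign-flip pair test. The fit without transgenic 6 and without a block called 12 higher and 18 lower.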
